A study of Mus musculus with 4 samples.

Results

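mmu-miR-451a, mmu-miR-486a-5p and mmu-miR-144-5p are miRNAs of red blood cells, and their counts were followed in small RNA libraries of the embryonic mouse forebrain in which Dicer had or had not been deleted. They were chosen by name, as 3 of the 1059 mature miRNAs in the count files. The tissue was the rostral-most telencephalic primordium at E11.5, dissected in 2 libraries of Rx-Dicer mutants (RxCre-DicerF/F, floxed Dicer alleles with an Rx3-Cre driver) and 2 libraries of controls. The labels call the controls WT, while the series' protocol names DicerF/F embryos, so both groups may carry the floxed alleles and differ in Cre. The Rx-Cre line came from a CD1 background and the floxed Dicer line from C57BL/6. Cre under Rx regulatory sequences acts in the anterior neural lineage of forebrain and eye, and red cells arise from mesoderm outside that lineage.

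miRNAs are short RNAs of about the length of the sequences shown here that guide Argonaute proteins to mRNAs, and most are cut from a hairpin by Drosha and then by Dicer. miR-451a is the known exception: its hairpin is too short for Dicer, and Ago2 slices it instead, after which the 3′ end is trimmed. miR-144 lies next to it in the same primary transcript, which GATA1 drives in erythroid cells, but is cut by Dicer. miR-486 comes from an intron of Ank1, the gene of the erythrocyte membrane protein ankyrin 1, and is also abundant in red cells and muscle. The values below set the Dicer-independent miR-451a beside its Dicer-dependent neighbour in mutants and controls.

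The sequences of miR-451a and miR-144-5p are printed because they show this contrast. They are the RefSeq entries on GRCm38.p6, read 5′ to 3′, with the seed (bases 2 to 8, the part that pairs with targets) in capitals. The miR-486 sequences are not printed here.
mmu-miR-451a: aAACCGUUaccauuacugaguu
mmu-miR-144-5p: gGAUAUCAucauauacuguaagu

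Both lie on the plus strand of chromosome 11, miR-451a from 78073186 to 78073207 and miR-144-5p from 78073010 to 78073032. No other mouse miRNA of the RefSeq table carries the seed of either. In the hairpins below, the capitals mark the mature miRNA.
Mir451a: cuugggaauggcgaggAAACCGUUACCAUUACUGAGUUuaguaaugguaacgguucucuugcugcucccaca
Mir144: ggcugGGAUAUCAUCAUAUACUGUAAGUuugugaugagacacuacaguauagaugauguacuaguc

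The Mir144 hairpin (chr11:78073005-78073070) ends 99 bases before the Mir451a hairpin (chr11:78073170-78073241). In the GENCODE vM21 annotation of the same build neither overlaps another gene on its strand, and the nearest protein-coding gene, Eral1, lies 135 bases from Mir451a. Mir451b is annotated on the opposite strand at the same place. In the fold predicted by RNAfold, mature miR-451a starts 18 bases before the terminal loop and runs through the whole loop, from position 17 to 38 of its 72-base hairpin. miR-144-5p starts 25 bases before the loop of its 66-base hairpin and ends ahead of it. Of 773 mouse miRNAs on the 5′ side of a hairpin with a single predicted loop, 2 (0.259%) cover the whole loop, and these are miR-451a and miR-468-5p. The median distance from mature start to loop was 26 bases. Mir486 (chr8:23142555-23142682, plus strand) and Mir3107, the miR-486b gene (chr8:23142573-23142662, minus strand), overlap each other in an intron of Ank1.

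The libraries held 516517 to 651031 counts in mutants and 1133553 to 1299067 in controls, summed over mature miRNAs, so the mutant libraries were shallower. Dicer mRNA is not part of these libraries. The most abundant miRNA, miR-9-5p of neural progenitors, took 28.2% and 29.4% of the counts in mutants and 31.5% and 42.6% in controls, which sets its second control library apart. Counts were therefore scaled with edgeR's TMM factors and given as scaled CPM (CPM, counts divided by the scaled library total and put on a common scale). Each level is thus a proportion that moves when other miRNAs move. In pieces of whole tissue, a change in the number of red cells and a change in miRNA per red cell cannot be told apart.

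miR-451a was counted 806 and 642 times in Rx-Dicer libraries 1 and 2, and 757 and 771 times in control libraries 1 and 2. Its scaled CPM were 1059 and 1095 in the mutants and 629 and 836 in the controls, so both mutant libraries lay above both controls. The mutant mean was 1077 ± 24.9 and the control mean 733 ± 146 (SD, 2 libraries per group), and the spread came mainly from the controls. The log2 fold change was 0.56 (standard error 0.26), a 1.47-fold higher level in mutants that did not pass the threshold of 0.05 (unadjusted p = 0.0643, adjusted p = 0.497 over 274 miRNAs, edgeR's quasi-likelihood test). It ranked 25th of the 274 fold changes from the highest.

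miR-486a-5p was the most abundant member, counted 4958 and 4324 times in Rx-Dicer and 6123 and 5059 times in control libraries. As scaled CPM these were 6517 and 7373 in mutants and 5089 and 5485 in controls, again without overlap. The means were 6945 ± 605 and 5287 ± 280.2 (SD, n = 2 each). Its log2 fold change of 0.39 (standard error 0.24) did not pass either (unadjusted p = 0.148, adjusted p = 0.603, edgeR's quasi-likelihood test). This value stands for miR-486b-5p as well, since both names had identical counts on each of their 2 shared precursor rows, and their reads cannot be told apart. Of the counts on the higher precursor row, 3.65% and 4.49% in mutants and 11.4% and 4.21% in controls were missing from the other row, so the rows differed most in control library 1. With the other row used for the fit, a choice made after the rows were seen to differ, the log2 fold change was 0.47 (adjusted p = 0.532, edgeR's quasi-likelihood test).

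miR-144-5p, the 5′ arm of its hairpin and the arm usually less abundant than miR-144-3p, was scarce. It had 14 and 21 counts in mutants and 23 and 38 in controls, or 18.4 and 35.8 scaled CPM in mutants and 19.1 and 41.2 in controls. The groups overlapped, and the higher library of each group exceeded the lower by 1.95-fold in mutants and 2.16-fold in controls. The log2 fold change was −0.16 (standard error 0.54, unadjusted p = 0.777, adjusted p = 0.963, edgeR's quasi-likelihood test), smaller than the spread between libraries. The 95% exact Poisson interval of its count reached from 45.3% below to 67.8% above the value in Rx-Dicer library 1, the widest, and from 29.2% below to 37.3% above it in control library 2, the narrowest. For miR-451a it reached at most 8.04% to either side and for miR-486a-5p at most 3.03%, so differences within the wider limits were not detectable for miR-144-5p at this depth. miR-144-3p was not analysed here.

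**Figure D1:**
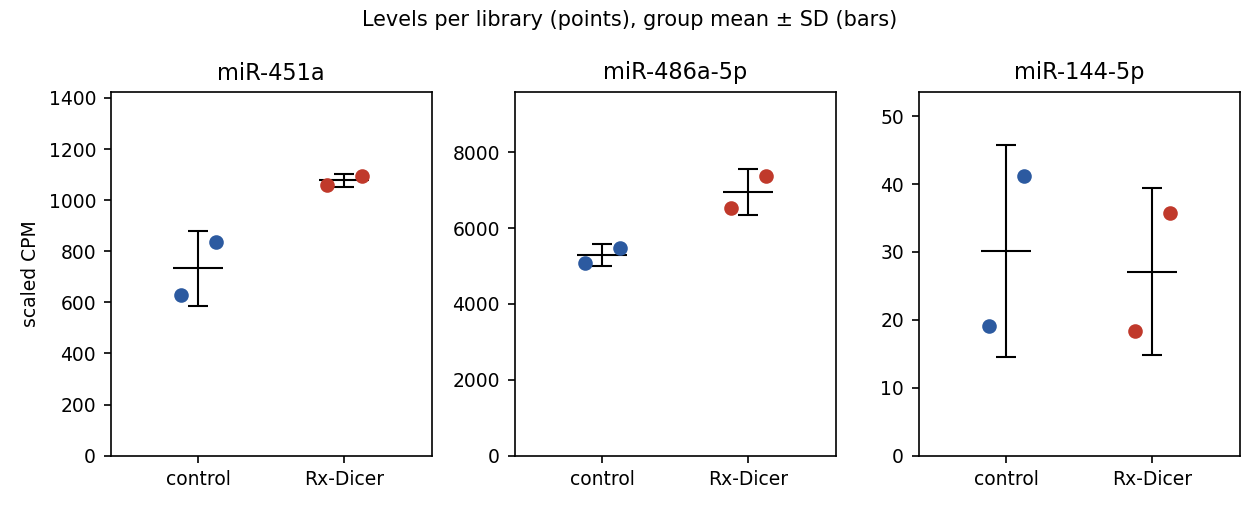
Scaled CPM (vertical axes, each starting at 0) of the 3 red-cell miRNAs in the 2 control and 2 Rx-Dicer libraries. Points are libraries, the horizontal bars are group means and the whiskers are ± SD. The mutant libraries lie above the controls for miR-451a (1059 and 1095 against 629 and 836) and miR-486a-5p, and the groups overlap for miR-144-5p.

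Of the 274 miRNAs that reached 10 counts in 2 or more libraries, 7 (2.55%) were called lower and 0 (0%) higher in the mutants when the adjusted p had to be under 0.05, and 3 (1.09%) were higher with an unadjusted p under 0.05. None of the 3 red-cell miRNAs was among the called miRNAs in edgeR's quasi-likelihood test, nor among those 3 at the unadjusted level. In DESeq2's Wald test miR-451a had an unadjusted p of 0.0366 (adjusted p = 0.323), miR-486a-5p an adjusted p of 0.415, and no adjusted p was given for miR-144-5p. Both mutant libraries lay above both controls for 2 of the 3 members, and for 49 of all 274 (17.9%). Over all 274, the median log2 fold change was 0.04.

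**Figure D2:**
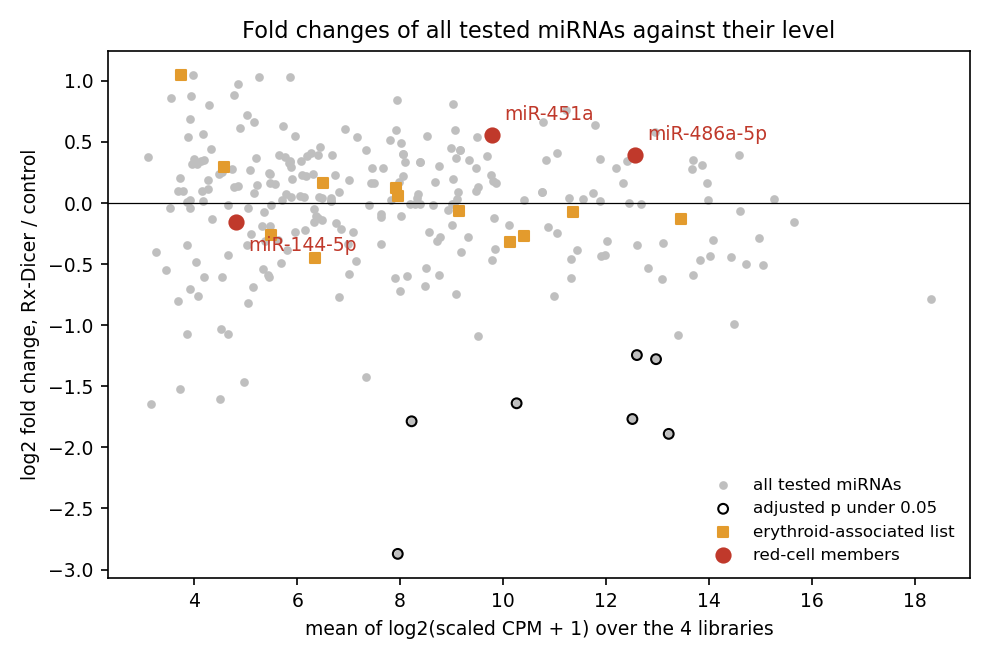
The log2 fold change of each of the 274 tested miRNAs (Rx-Dicer over control, vertical axis) against its mean log2(scaled CPM + 1) over the 4 libraries. Red points are the 3 red-cell miRNAs, orange squares the 12 tested miRNAs of the erythroid-associated list and open circles the 7 called miRNAs, all of which lie below 0. The members, at 0.56, 0.39 and −0.16, lie within the cloud of uncalled miRNAs.

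Ratios between members within a library need no scaling between libraries. The ratio of miR-451a to miR-144-5p sets the Ago2-made miRNA beside the scarce 5′ arm of its Dicer-dependent neighbour. Whether either was made in cells that had lost Dicer was not tested. There were 57.6 and 30.6 counts of miR-451a for each count of miR-144-5p in Rx-Dicer libraries 1 and 2, and 32.9 and 20.3 in control libraries 1 and 2. The groups overlapped, since mutant library 2 lay below control library 1. The exact 95% counting intervals of the ratio were wide, from 34.1 to 106 and 19.8 to 49.7 in mutants and from 21.8 to 52.2 and 14.6 to 28.9 in controls. On the log2 scale the mutant ratio was 5.39 ± 0.65 and the control ratio 4.69 ± 0.49 (SD, n = 2 each), a difference of 0.70, or 1.62-fold (exact permutation test, two-sided, p = 0.667). The adjusted p over the 3 ratios was also 0.667, and 2 libraries against 2 cannot give a p under 0.333. The difference was 0.24 without Rx-Dicer library 1 and 1.16 without Rx-Dicer library 2. These data therefore show no difference in this ratio beyond the spread between libraries, and they do not show that the ratios were equal.

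The 2 abundant members kept a narrower ratio. miR-451a had 0.163 and 0.148 counts for each count of miR-486a-5p in the mutants, and 0.124 and 0.152 in the controls, so only control library 1 stood somewhat lower. That is the library in which the precursor rows of miR-486a-5p differed most (11.4%). Ratios with the lower row alone were not computed. On the log2 scale the mutants stood at −2.69 ± 0.09 and the controls at −2.86 ± 0.21 (SD, n = 2 each), a difference of 0.18 (exact permutation test, two-sided, p = 0.667). The ratio of miR-486a-5p to miR-144-5p was 354 and 206 in mutants against 266 and 133 in controls, which also overlapped (log2 difference 0.52, exact permutation test, two-sided, p = 0.667).

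**Figure D3:**
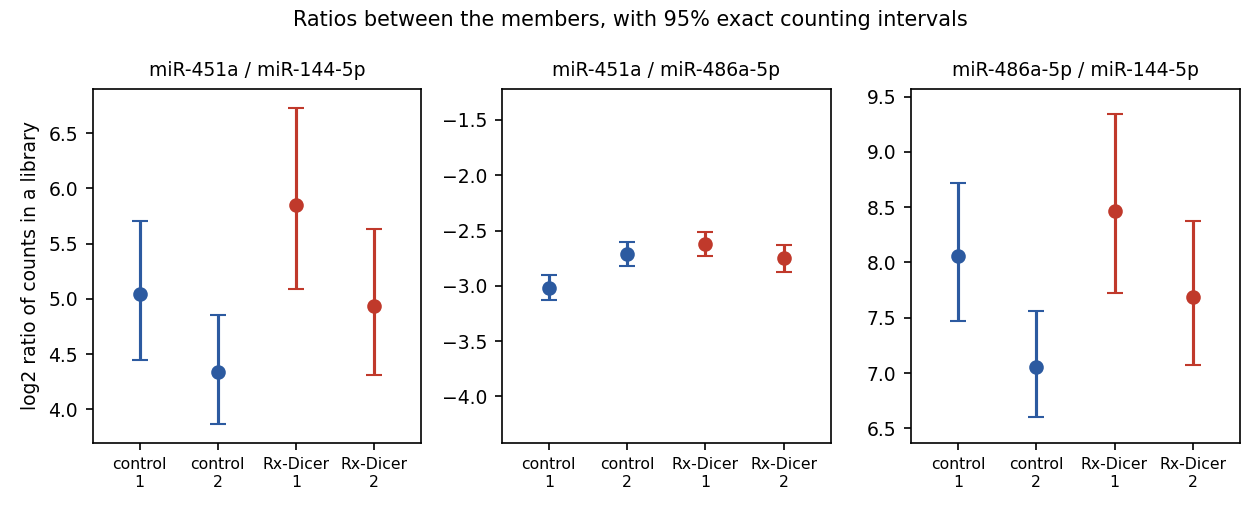
The log2 ratio of counts of 2 members within each library, one panel per pair, with the same span of the vertical axis in each. Points are libraries and whiskers are 95% exact counting intervals. The ratios to miR-144-5p carry wide intervals and overlap between the groups (57.6 and 30.6 against 32.9 and 20.3 on the linear scale for miR-451a), and the ratio of miR-451a to miR-486a-5p varied less between libraries.

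As a share of all miRNA counts, before any scaling, the 3 members together made up 0.888% and 0.966% in Rx-Dicer libraries 1 and 2 and 0.531% and 0.518% in control libraries 1 and 2. The 95% Wilson intervals were 0.865 to 0.911 and 0.939 to 0.993 in mutants and 0.519 to 0.544 and 0.505 to 0.531 in controls. These intervals cover counting error within a library only. Both mutant shares lay above both control shares. The means were 0.927% ± 0.0551 and 0.525% ± 0.00970 (SD, n = 2 each), a difference of 0.402 percentage points (p = 0.333 by a two-sided exact permutation test, which can reach no lower value here). miR-486a-5p supplied 85.8 to 88.7% of these counts and miR-144-5p at most 0.648%. The share depends on the other miRNAs in the library: when total counts alone set the scale, the median over all 274 log2 fold changes moved to 0.44, and those of miR-451a and miR-486a-5p to 0.97 and 0.80. Relative to that median, miR-451a and miR-486a-5p were at 0.53 and 0.36, close to the 0.52 and 0.36 obtained with TMM. A change of scale moves all fold changes by nearly the same amount, so this closeness was fixed in advance and adds no support. On the scale of total counts 78.1% of the 274 fold changes were positive. How many miRNAs separated the groups on that scale was not counted, but the separation was not particular to the members. For example, miR-16-5p, with a TMM-scaled log2 fold change of −0.07, had 3000 and 2892 unscaled CPM in mutants and 2335 and 2328 in controls.

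**Figure D4:**
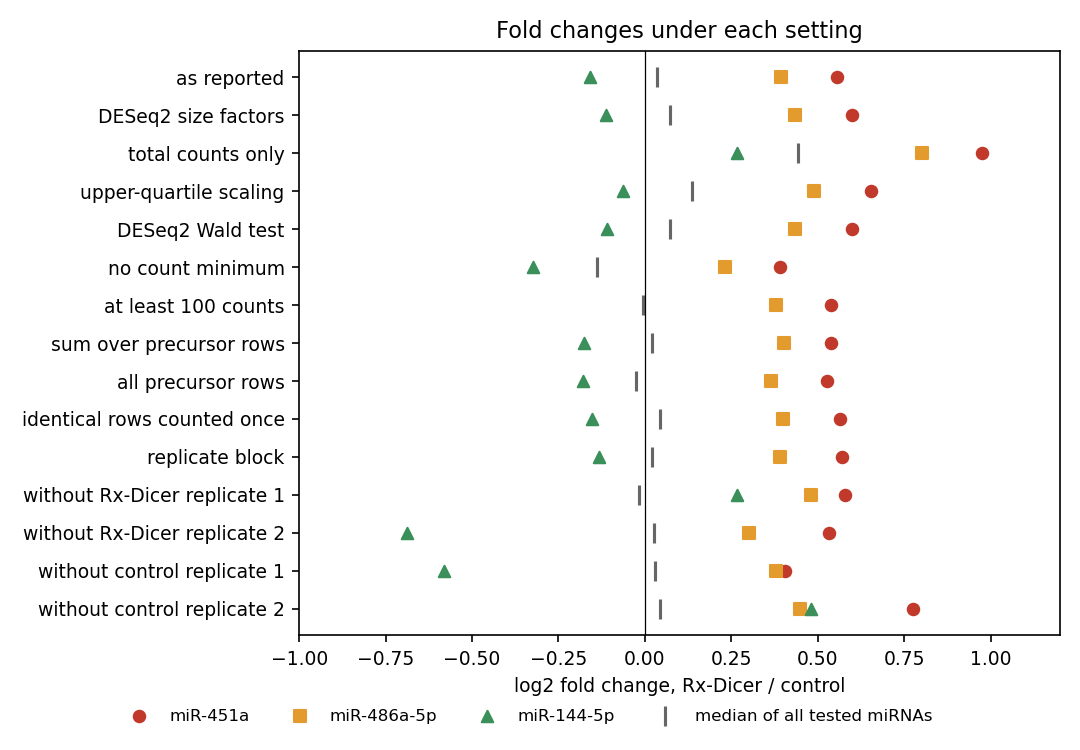
The log2 fold change of each member (Rx-Dicer over control) under each setting of the fit, one setting per line, with a vertical tick at the median of all miRNAs tested there. miR-451a and miR-486a-5p lie to the right of 0 and of the median in each setting shown, and miR-144-5p lies on either side of 0, from −0.69 to 0.48 with a library left out.

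Of the other red-cell names looked for, miR-486b-5p was the copy described above and miR-451b, on the strand opposite miR-451a, had 0 counts in all 4 libraries, which allows at most 2.31 to 5.81 CPM when 3 counts are taken as the floor. A second list held miRNAs known from erythroid cells that are also expressed elsewhere. Of its 15 rows 12 were tested, 0 were called (edgeR's quasi-likelihood test), 0 had an unadjusted p under 0.05, and 5 had a positive fold change. Over all 274 tested miRNAs 149 had a positive fold change. Both mutant libraries lay below both controls for 3 of the 12 and above both for 1, against 67 and 49 of all 274. All 15 are 5′ arms, and for several of these miRNAs, such as miR-25, miR-92a, miR-210 and miR-221, the 3′ arm, usually the more abundant, was not analysed here. The median log2 fold change of the list was −0.07, against 0.04 over all tested miRNAs. The highest was 1.05 for miR-210-5p, a hypoxia-responsive miRNA with only 7 to 13 counts per library (adjusted p = 0.542, edgeR's quasi-likelihood test). The lowest was −0.45 for miR-15a-5p, of the cluster that also encodes miR-16 (adjusted p = 0.638, edgeR's quasi-likelihood test). miR-16-5p, abundant in red cells and in most other cells, had 1953 and 1494 counts in mutants and 3033 and 2639 in controls, with a log2 fold change of −0.07 (standard error 0.25).

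Markers of other cell types in the piece were read in the same fit, again mostly from 5′ arms, which for miR-223, miR-126a and miR-124 are the arms usually less abundant. Those of white blood cells summed to 704 to 772 scaled CPM in mutants and 709 to 812 in controls over 5 rows, of which 0 of 4 tested were called. Those of endothelium summed to 244 to 431 in mutants and 253 to 403 in controls, all of it miR-126a-5p, while the 2 rows of miR-126b were at 0. The 3 rows of mural cells (miR-143-5p, miR-143-3p and miR-145a-5p) summed to 4711 to 4894 in mutants and 2329 to 5152 in controls. The summed levels of these 3 lists overlapped between the groups, but single markers had fold changes in either direction. All 3 mural miRNAs had positive log2 fold changes (0.61, 0.36 and 0.34), none with both mutant libraries above both controls. Among white blood cell markers, miR-142a-5p was higher in both mutant libraries (0.46) and miR-150-5p lower in both (−1.04). The mesenchymal miR-199a-5p (0.58) and miR-199b-5p (0.81), in no list and chosen after their values were seen, were also higher in both. Over all 274 tested miRNAs 49 were higher in both and 67 lower in both. For miR-199a-5p, control library 2 (9787 scaled CPM) lay just below Rx-Dicer library 2 (10096), and control library 1 stood at 3935. miR-214-5p, also mesenchymal (0.52), overlapped, with 300 and 266 scaled CPM in mutants and 106 and 292 in controls. None of these mural, white blood cell and mesenchymal markers passed edgeR's quasi-likelihood test. The part of such cells in the red-cell values was not tested. The summed levels of the neural list did not overlap between the groups, with 245132 to 262705 in mutants and 345320 to 527808 in controls. Nearly all of this sum was miR-9-5p, whose log2 fold change was −0.79 (standard error 0.27, unadjusted p = 0.0220, adjusted p = 0.344, edgeR's quasi-likelihood test). Of the 6 tested neural miRNAs 3 were lower in both mutant libraries (miR-9-5p, miR-124-5p and miR-219a-5p), against 67 of all 274 tested. Positive values were seen for 2 (miR-135a-5p at 0.23 and miR-128-1-5p at 0.05). With miR-9-5p taken out of the total, the 3 red-cell miRNAs made up 1.24% and 1.37% of the counts in mutants and 0.776% and 0.903% in controls, still without overlap. The mutant mean was then 1.55-fold the control mean, against 1.77-fold with miR-9-5p in the total (p = 0.333 for either by the exact permutation test). How many other miRNAs separated the groups with miR-9-5p taken out of the total was not counted.

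The miRNAs whose levels followed miR-451a most closely over the 4 libraries were found by the root mean square difference of centred log2 scaled CPM, among 132 miRNAs with at least 100 counts in each library. They were miR-18b-5p (0.09), miR-20a-5p (0.10), miR-28c (0.11), miR-28a-5p (0.11) and miR-380-5p (0.12), against a median of 0.39. miR-28a-5p and miR-28c had equal counts in 3 libraries and differed by 1 count in the other, so their reads may be shared. By the same measure miR-486a-5p, at 0.15, would have placed 10th and miR-144-5p, at 0.54, would have placed 92nd. miR-18b-5p, from the X-linked miR-106a cluster, is also among the 3 miRNAs higher at an unadjusted p under 0.05, with 603 and 730 scaled CPM in mutants and 389 and 491 in controls (adjusted p = 0.482, edgeR's quasi-likelihood test). With 4 libraries, this likeness is a description only.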

How the data were processed

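Small RNA libraries (NEBNext kit, 75-base single reads, 1 µg of total RNA each) were made from frozen, papain-dissociated tissue, 2 per genotype. The authors deposited raw read counts per mature miRNA and precursor, quantified with miRDeep2 against miRBase 22 and mm10, with 1211 rows per library; the miRDeep2 version is not given in the sources used here. For each mature name the precursor row with the highest total was kept. A miRNA entered the fit when it reached 10 counts in 2 or more libraries, and the 274 that did were fitted with edgeR 4.0.16 (TMM scaling, quasi-likelihood test, genotype as the only term, Benjamini-Hochberg adjustment over all 274), and DESeq2 1.42.0 was an alternative (R 4.3.3). The fits were tested on 20 simulated sets, each with 20 miRNAs changed 4-fold. edgeR recovered 78.5% of these and DESeq2 76.75%, and 4.27% and 4.06% of their calls were false. Changes as small as those of the members were not simulated. Ratios and shares were compared by exact permutation tests (scipy 1.17.1). Hairpins were folded with RNAfold 2.7.2.

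Groups came from the genotype labels. The number of embryos per library is not given in the sources used here, so p-values measure only the spread between these libraries, which may be technical. Same-group libraries were not duplicates (chi-square per degree of freedom 52.4 in mutants and 215 in controls). Intervals cover counting error within a library only. The reads carry no molecular identifiers, so even this error may be understated. The members and lists were chosen with earlier results of these data known. By rule, the named miRNAs were the members, the other red-cell names, the highest and lowest fold change of the erythroid-associated list, the 5 nearest to miR-451a and miR-9-5p, while miR-16-5p was added after its values were seen. Alternatives covered the scaling, the test, the count minimum, the handling of precursor rows, a replicate block and each library left out.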

Additional observations from a re-analysis of the deposited data

How the results depend on the processing

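miR-451a and miR-486a-5p had positive log2 fold changes, with adjusted p above 0.05, under every alternative run: 0.39 to 0.97 and 0.23 to 0.80 (adjusted p from 0.188 to 0.905 for both), and 0.40 to 0.78 and 0.30 to 0.48 with a library left out. miR-144-5p turned positive with total counts as the scale (0.27), and ranged from −0.69 to 0.48 with a library left out, positive without Rx-Dicer library 1 (0.27) and without control library 2 (0.48). With at least 100 counts it was not tested. The 3 ratio differences and the difference in share kept their sign: over the libraries left out they ranged from 0.24 to 1.16 for miR-451a to miR-144-5p, 0.03 to 0.33 for miR-451a to miR-486a-5p, 0.02 to 1.02 for miR-486a-5p to miR-144-5p, and 0.363 to 0.441 percentage points. Both the low counts of miR-144-5p and the spread between its libraries limit its comparison.

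The number of called miRNAs, 7 as reported and all lower, was 4 with DESeq2 size factors, 3 with upper-quartile scaling, 0 with total counts, 11 in DESeq2's Wald test, 14 with no count minimum (634 tested), 14 with all precursor rows, 3 with identical rows counted once, and 0 to 6 with a library left out. The share of positive fold changes was 54.4% as reported, 78.1% with total counts and 42.7% with no count minimum. The causes were not tested. In a fit with a replicate block, 0 were called in edgeR (4 higher and 20 lower at an unadjusted p under 0.05; with total counts 51 and 10), and the log2 fold changes of miR-451a and miR-486a-5p were 0.57 and 0.39. Same-numbered libraries deviated together with a correlation of 0.09 over 274 miRNAs. With 2 libraries per group this cannot tell whether they share more than a number.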
